A study of Mus musculus with 22 samples.

Results

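The comparison asked whether oxycodone self-administration had a different effect on transcript levels in the dorsal striatum of the mouse than in its ventral striatum. It used all 22 of the 22 libraries of the series, placed in 4 groups by the labelled treatment and tissue. For each gene it took the oxycodone-minus-saline difference in dorsal striatum minus the same difference in ventral striatum, called the interaction here. A positive interaction means that the oxycodone effect was the more positive one in dorsal striatum, and a negative one that it was the more positive in ventral striatum. The measurement was repeated on 20 libraries, without the ventral libraries titled Sample11 and Sample12.

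The animals were adult male C57BL/6J mice, an inbred laboratory strain with no labelled transgene. Oxycodone, an opioid analgesic that acts mainly through the mu opioid receptor, was self-administered at 0.25 mg/kg per infusion in sessions of 4 h a day over 14 days. The yoked controls, animals whose infusions are given without a response of their own, received saline on the same daily schedule. The groups were oxycodone dorsal striatum (5 libraries), saline dorsal striatum (5 libraries), oxycodone ventral striatum (6 libraries) and saline ventral striatum (6 libraries). The labels do not tie libraries to animals, so p-values measure the spread between libraries, which may be technical. In each dorsal group the second and the third libraries share a title number and differ by a suffix P, whose meaning is not given. If such a pair came from the same animal, each dorsal group would hold 4 animals. With the counts of each pair summed, edgeR called 0 of 14944 genes for the interaction defined above (699 at an unadjusted p under 0.05), and 0 of 14883 (690) without Sample11 and Sample12. The interval between the last session and tissue collection is not given in the sources used here.

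The dorsal striatum (caudate and putamen) and the ventral striatum (nucleus accumbens and neighbouring tissue) share the same main cell type, the GABAergic medium spiny neuron, which carries either the D1 or the D2 dopamine receptor. The ventral striatum is best known for reward and motivation, and the dorsal striatum for action selection and habit. Opioid receptors and the opioid peptide precursors proenkephalin and prodynorphin are made in both. An opioid can therefore act on both regions at once, through receptors on neurons that differ in their inputs and outputs.

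Each library is a stranded total RNA library depleted of ribosomal RNA, made from column-purified RNA of bulk tissue, and the deposited values are read counts per gene. Totals were 11314079 to 21921963 counts in the dorsal libraries and 8408829 to 11000345 in the ventral ones. Levels are given as CPM, counts relative to the library total after scaling by TMM factors, and differences on the log2 scale with their standard error (SE). Region and library set cannot be told apart in these levels. In the dorsal libraries 54.2 to 57.5% of nonzero counts were even numbers, against 47.8 to 48.8% in the ventral ones, and the part of this in the interaction was not tested. Known dorsal markers averaged 6.81 to 7.11 log2 CPM in the dorsal libraries and 5.35 to 6.6 in the ventral ones. Known ventral markers averaged 1.83 to 3.19 log2 CPM in the dorsal libraries and 4.27 to 5.12 in 10 of the 12 ventral ones, while the sixth oxycodone ventral library had 2.62 and the sixth saline ventral library 0.95. The ventral markers of these last libraries therefore go against their ventral label.

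Both sixth ventral libraries stood apart from their groups. These are the libraries titled Sample11 (oxycodone) and Sample12 (saline). In the sixth saline ventral library Drd1, the D1 dopamine receptor that defines one class of medium spiny neuron, had 5.75 CPM, against 149 to 196 CPM in the other saline ventral libraries, and markers of cortical glutamatergic neurons averaged 6.18 log2 CPM, against 2.83 to 3.99. In the sixth oxycodone ventral library markers of the choroid plexus and ependyma averaged 4.08 log2 CPM, against 1.24 to 1.78 in the other oxycodone ventral libraries, and dorsal striatum markers 6.6 log2 CPM, against 5.91 to 6.08. In bulk tissue fewer cells of a type and less RNA per cell cannot be told apart. The main results are therefore given with 22 and with 20 libraries.

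No gene passed an adjusted p of 0.05 for the interaction among the 14938 genes tested by edgeR's quasi-likelihood test with 22 libraries (0%), and the smallest adjusted p was 0.981. At an unadjusted p under 0.05 there were 674 genes (4.51%), where about 747 would pass if no gene differed. Of these, 302 had the more positive oxycodone effect in dorsal striatum (2.02%) and 372 the more positive one in ventral striatum (2.49%). Of the genes at an unadjusted p under 0.05, the share with a positive interaction was 52.5% on library totals and 44.8% with TMM factors. DESeq2 called 0 genes (720 at an unadjusted p under 0.05), and limma-voom with sample quality weights called 0 (666 at an unadjusted p under 0.05).

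Without both sixth ventral libraries edgeR again called 0 of 14891 genes (0%), and the smallest adjusted p was 0.297. There were 611 genes at an unadjusted p under 0.05 (4.1%), 196 with a positive interaction (1.32%) and 415 with a negative one (2.79%). The positive share was 32.1% with TMM factors and 46.9% on library totals, so the excess of negative values depended on the scaling. DESeq2 called 5 genes in the 20 libraries, 4 of them described below, and limma-voom called 0 (673 at an unadjusted p under 0.05).

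The data bounded the interaction of most expressed genes. Among the 10117 genes at a mean of at least 10 CPM, the median half-width of the 95% confidence interval was 0.36 log2 with 22 libraries, a 1.29-fold difference between the regional effects. For 9306 of these genes (92%) the whole interval lay within 1 log2 unit of 0, and for 9711 (96%) with 20 libraries. The median size of the interaction was 0.12 log2 with 22 libraries and 0.11 with 20.

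**Figure D1:**
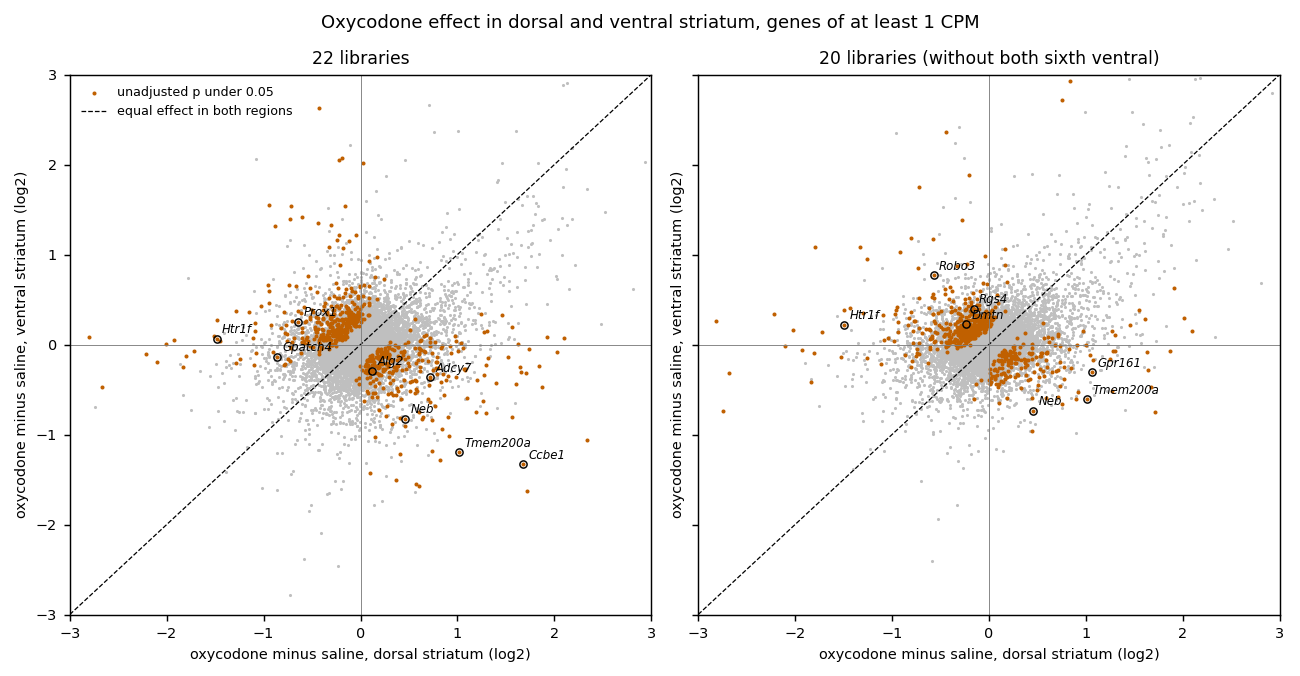
Oxycodone-minus-saline difference (log2) in dorsal striatum (horizontal axis) and in ventral striatum (vertical axis) for each gene of at least 1 CPM, with 22 libraries (left panel) and without both sixth ventral libraries (right panel). Points on the dashed diagonal have an interaction of 0, labelled points are among the genes with the lowest unadjusted p of the interaction, and 18 of 14355 genes (left) and 13 of 14354 (right) lie outside the axes.

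The lowest unadjusted p of any gene belonged to 1700019D03Rik (chr1:52922324-53020179, minus strand, GRCm38), a gene model without an assigned function. It had 1.83, 2.01, 1.44, 1.22 and 1.51 CPM in the oxycodone dorsal libraries, against 8.61, 5.10, 5.97, 5.15 and 3.37 CPM in the saline dorsal libraries. In ventral striatum it had 2.26 to 5.01 CPM (median 3.83) in oxycodone libraries and 2.92 to 5.08 CPM (median 4.45) in saline libraries. All oxycodone dorsal libraries were below all saline dorsal ones, and the ventral groups overlapped. The interaction was −1.67 ± 0.37 log2 (SE), with a 95% interval of −2.42 to −0.92 and an unadjusted p of 0.000113.

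Htr1f encodes the serotonin receptor 1F, a receptor coupled to inhibitory G proteins (chr16:64924729-65105854, minus strand). It had 2.50, 2.70, 1.8, 0.861 and 2.65 CPM in the oxycodone dorsal libraries, against 6.48, 5.37, 9.06, 3.65 and 5.24 CPM in the saline dorsal libraries. In ventral striatum it had 6.02 to 12.5 CPM (median 10.7) in oxycodone libraries and 7.66 to 10.6 CPM (median 9.49) in saline libraries. The dorsal groups did not overlap, with oxycodone lower, while the ventral groups did. Its oxycodone effect was −1.48 log2 in dorsal striatum and 0.07 in ventral striatum, an interaction of −1.55 ± 0.36 (95% interval −2.29 to −0.81, unadjusted p = 0.000214). With 20 libraries the interaction was −1.71 ± 0.36 and had the lowest unadjusted p of all genes, 6.15e-05. Over every alternative setting and left-out library it stayed between −1.90 and −1.21 log2.

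Gpatch4, which encodes a nuclear G-patch domain protein (chr3:88043108-88055993, plus strand), had the same arrangement. It had 8.06, 7.93, 6.68, 8.04 and 8.25 CPM in the oxycodone dorsal libraries, against 16.2, 17.9, 16.3, 11.0 and 9.77 CPM in the saline dorsal libraries. In ventral striatum the range was 14.5 to 17.7 CPM (median 15.3) in oxycodone libraries and 15 to 19.2 CPM (median 17.9) in saline libraries. The dorsal groups were separate and the ventral ones overlapped, and the interaction was −0.72 ± 0.21 log2 (unadjusted p = 0.00164). In the joint fit of the 22 libraries the dorsal effects of 1700019D03Rik, Htr1f and Gpatch4 passed the test as falls, with edgeR adjusted p of 0.01, 0.0338 and 0.0263, among 5 dorsal calls in all (0.0335% of genes). The other dorsal calls, Ehd1 and C5ar1, rose, C5ar1 from only 0 to 0.432 CPM in the saline dorsal libraries. In a fit of the dorsal libraries alone edgeR's adjusted p was 0.0623 for 1700019D03Rik, 0.176 for Htr1f, 0.165 for Gpatch4 and 0.0654 for C5ar1, all above the threshold, and 0.0359 for Ehd1.

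Several other named genes had a negative interaction and a low unadjusted p. Katna1, which encodes the microtubule-severing subunit of katanin, had 17.9, 14.3, 20.5, 20.9 and 19.9 CPM in oxycodone dorsal libraries, against 24.0, 25.1, 25.2, 22.1 and 20.4 CPM in saline dorsal libraries. Its ventral range was 22.7 to 29.0 CPM (median 25.1) after oxycodone and 18.8 to 23.2 CPM (median 19.8) after saline, and the interaction was −0.61 ± 0.15 log2 (unadjusted p = 0.000553). Wwtr1, which encodes TAZ, a transcriptional coactivator of the Hippo pathway, had an effect of −0.38 log2 in dorsal striatum and 0.29 in ventral striatum (interaction −0.67 ± 0.18). Prox1, a homeobox transcription factor, had −0.64 and 0.25 log2 in dorsal and ventral striatum, and Josd1, a deubiquitinating enzyme, −0.33 and 0.15. Ppil4, a peptidyl-prolyl isomerase, had an interaction of −0.44 log2, and Rragd, a Rag GTPase of the nutrient-sensing mTOR pathway, one of −0.42. Of these, the oxycodone and saline dorsal libraries were separate for Josd1 and overlapped for the others.

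Adcy7, which encodes an adenylyl cyclase that makes cyclic AMP (chr8:88272403-88329962, plus strand), had the lowest unadjusted p among named genes with a positive interaction. It had 12.7, 14.2, 13, 14.1 and 17.8 CPM in the oxycodone dorsal libraries, against 9.68, 4.66, 6.19, 11.1 and 11.6 CPM in the saline dorsal libraries. In ventral striatum it had 9.03 to 12.5 CPM (median 10.6) in oxycodone libraries and 11.8 to 16.4 CPM (median 13.1) in saline libraries. Oxycodone libraries were all higher in dorsal striatum, and in ventral striatum the groups overlapped only at 12.5 against 11.8 to 12.4 CPM. The interaction was 1.08 ± 0.26 log2 with 22 libraries (95% interval 0.54 to 1.62, unadjusted p = 0.000357) and 1.00 ± 0.28 with 20.

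For Neb, which encodes the giant actin-binding protein nebulin of muscle thin filaments (chr2:52136647-52378474, minus strand), the ventral effect was the larger one. It had 7.31 to 14.5 CPM (median 11.8) in oxycodone ventral libraries and 17.1 to 23.5 CPM (median 20.2) in saline ventral libraries, with no overlap. In dorsal striatum it had 5.84, 8.97, 8.19, 4.95 and 4.59 CPM in oxycodone libraries, against 6.93, 6.77, 3.74, 3.15 and 3.51 CPM in saline libraries, which overlapped. The oxycodone effect of Neb was 0.46 log2 in dorsal and −0.82 in ventral striatum, and the interaction was 1.28 ± 0.32 log2 (unadjusted p = 0.000473). Btbd11, which encodes an ankyrin repeat and BTB domain protein, and Alg2, a mannosyltransferase of N-glycan synthesis, were likewise lower in every oxycodone ventral library than in any saline ventral one. Alg2 had 45.8 to 60.4 CPM (median 53.5) in oxycodone ventral libraries and 62.4 to 67.8 CPM (median 65.6) in saline ventral libraries, and its interaction was 0.41 ± 0.11 log2. Btbd11 had an interaction of 1.02 log2 with 22 libraries and 0.79 with 20. Its dorsal and ventral effects were 0.41 and −0.61 log2 with 22 libraries, and 0.40 and −0.39 with 20.

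Some large positive values rested in part on the sixth saline ventral library. Ccbe1, an extracellular protein needed for growth of lymphatic vessels, had 9.91 CPM in that library and 1.36 to 2.23 CPM in the other saline ventral ones. Its interaction was 3.01 ± 0.77 log2 with 22 libraries and 2.14 ± 0.70 with 20. Tmem200a, a transmembrane protein, had 30.9 CPM there and 6.40 to 13.5 CPM in the others, and its interaction was 2.22 log2 with 22 libraries and 1.62 with 20. Pald1, which encodes paladin, and Rc3h1, which encodes the RNA-binding ubiquitin ligase Roquin-1, had interactions of 0.77 and 0.29 log2, with ventral effects of −0.17 and −0.04.

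**Figure D2:**
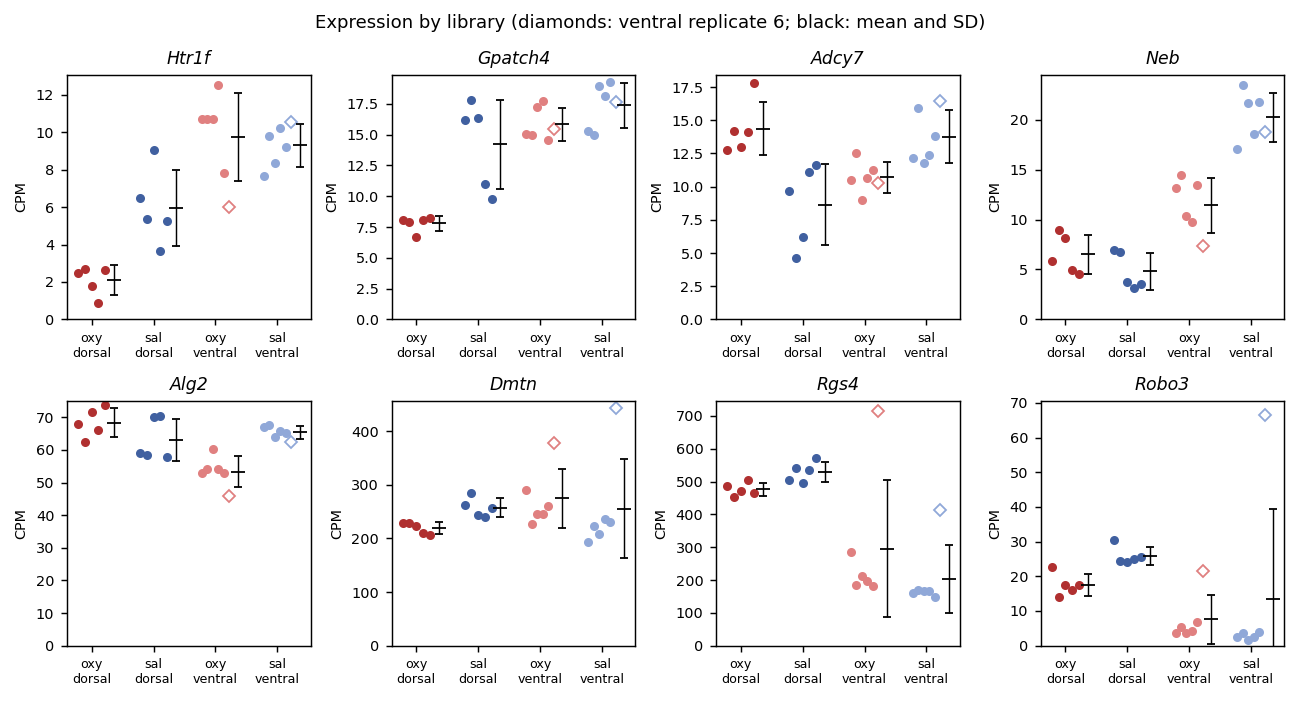
TMM-scaled CPM (vertical axes, from 0) of 8 genes in each library, by group, with the mean and SD in black and open diamonds for both sixth ventral libraries. In Htr1f and Gpatch4 the oxycodone dorsal libraries sit below the saline dorsal ones while the ventral groups overlap. Neb and Alg2 show the separation in ventral striatum, and the diamonds lie far from their groups in Robo3, Dmtn and Rgs4.

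Leaving out both sixth ventral libraries brought other genes to low p. Robo3, an axon guidance receptor of the roundabout family, had 22.8, 13.9, 17.5, 15.9 and 17.4 CPM in oxycodone dorsal libraries, against 30.5, 24.5, 24.0, 24.8 and 25.4 CPM in saline dorsal libraries. In ventral striatum it had 3.67 to 6.92 CPM (median 4.25) in 5 oxycodone libraries and 1.73 to 3.85 CPM (median 2.41) in 5 saline libraries, while the sixth libraries held 21.6 CPM (oxycodone) and 66.6 CPM (saline). Its interaction was −1.34 ± 0.29 log2 with 20 libraries (unadjusted p = 7.51e-05) and 0.28 ± 1.09 with 22 (unadjusted p = 0.8), so its sign depended on those libraries. Dmtn, which encodes the actin-bundling protein dematin, had 206 to 229 CPM in oxycodone dorsal libraries and 239 to 284 CPM in saline dorsal libraries, with no overlap. Its ventral range in 5 and 5 libraries was 228 to 290.4 CPM after oxycodone and 194 to 236 CPM after saline, and the interaction was −0.47 ± 0.10 log2 (−0.33 with 22 libraries).

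With DESeq2 on the 20 libraries, Htr1f, Robo3, Dmtn and 1700019D03Rik each had an adjusted p of 0.0439, while edgeR's adjusted p was 0.297 for these 4 genes. These calls therefore depend on the test used. Rgs4, a GTPase activator that shortens G protein signalling, including that of opioid receptors, had 183 to 286 CPM in 5 oxycodone ventral libraries and 148 to 169 CPM in 5 saline ventral libraries. Its dorsal range was 455 to 506 CPM after oxycodone and 494 to 571 CPM after saline, and the interaction was −0.56 ± 0.12 log2 with 20 libraries (unadjusted p = 9.83e-05) and −0.69 ± 0.46 with 22.

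Further genes had a low unadjusted p with 20 libraries. Ephx4, an epoxide hydrolase, had an interaction of −0.63 ± 0.15 log2 with 20 libraries, and Rprml, a reprimo-like protein, −1.08 ± 0.26. Gpr149, an orphan G protein-coupled receptor, had 0.95 ± 0.22, and Gpr161, a G protein-coupled receptor of the primary cilium, 1.37 ± 0.39. The interaction of Gpr161 was much the same with 22 libraries, at 1.35 ± 0.43. Gpr149 had 35.1, 26.0, 24.4, 27.8 and 28.5 CPM in oxycodone dorsal libraries, against 23.3, 13.9, 12.4, 19.9 and 20.1 CPM in saline dorsal libraries. The dorsal groups were separate with oxycodone higher, while its 5 and 5 ventral libraries overlapped at 29.6 to 50.5 CPM after oxycodone and 42.2 to 56.6 CPM after saline. In none of these genes did edgeR's adjusted p fall below 0.297.

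A fit of the dorsal libraries alone called 30 of 14595 genes (0.206%), 29 as rises and 1, Sh3rf2, as a fall, and a fit of the ventral libraries alone called 0 of 14116 (0%; 1289 at an unadjusted p under 0.05, 9.13%). This contrast in calls is not itself a test of the difference, and the interaction was read for each of the 30. Because they were chosen by their dorsal values, their interaction is given as a description. Their median effect was 1.17 log2 in dorsal striatum and 0.71 in ventral striatum, and 29 of 30 had the same sign in both regions. The median interaction was 0.43 log2 with 22 libraries and 0.33 with 20, and the 95% interval covered 0 for 28 genes with 22 libraries and for 27 with 20.

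Xdh, xanthine dehydrogenase of purine breakdown, had 74.9, 89.5, 63.6, 81.2 and 103 CPM in oxycodone dorsal libraries, against 44.8, 49.5, 49.6, 42.8 and 40.3 CPM in saline dorsal libraries. Its ventral libraries overlapped, with 18.4 to 73.7 CPM (median 53.4) after oxycodone and 21.1 to 51.3 CPM (median 39.3) after saline. The interaction was 0.48 ± 0.35 log2 with a 95% interval of −0.25 to 1.22, so these libraries bound the regional difference in Xdh only loosely. Cp, the ferroxidase ceruloplasmin, had an interaction of 0.40 ± 0.42 log2 with 22 libraries and 0.05 ± 0.36 with 20, and Tgm2, transglutaminase 2, had 0.45 ± 0.31 and 0.40 ± 0.33. With 22 libraries their 95% intervals included 0 and reached 1.27 log2 for Cp and 1.09 for Tgm2.

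Ehd1, an ATPase of endocytic recycling, was the narrowest case. It had 53.0, 61.0, 50.4, 56.8 and 58.0 CPM in oxycodone dorsal libraries, against 31.0, 35.2, 39.7, 38.6 and 43.8 CPM in saline dorsal libraries. It also had 32.2 to 43.1 CPM (median 35.0) in oxycodone ventral libraries and 27.2 to 31.8 CPM (median 30.1) in saline ventral libraries. Oxycodone libraries were higher without overlap in both regions, by 0.57 log2 in dorsal and 0.28 in ventral striatum, and the interaction was 0.29 ± 0.13 (95% interval 0.01 to 0.56, unadjusted p = 0.0418). Ube2l6, the conjugating enzyme of the ubiquitin-like protein ISG15, had 8.45, 14.1, 10.1, 2.94 and 21.9 CPM in oxycodone dorsal libraries, against 4.17, 3.43, 1.73, 2.96 and 2.95 CPM in saline dorsal libraries. Its ventral groups overlapped at 1.59 to 8.85 CPM after oxycodone and 1.92 to 11.5 CPM after saline, and its interaction was 1.84 ± 0.68 log2 (1.28 ± 0.59 with 20 libraries).

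Sh3rf2, which encodes a ubiquitin ligase with SH3 domains, was the single dorsal fall and the single gene of the 30 with opposite signs. It had 68.9, 60.1, 76.1, 59.1 and 60.3 CPM in oxycodone dorsal libraries, against 97.8, 85.8, 93.5, 76.9 and 93.5 CPM in saline dorsal libraries. The sixth ventral libraries held 125 CPM (oxycodone) and 2.45 CPM (saline), outside the 37.0 to 59.6 CPM of the other oxycodone ventral and the 34.9 to 51.1 CPM of the other saline ventral libraries. The interaction was −1.23 ± 0.59 log2 with 22 libraries and −0.64 ± 0.18 with 20 (unadjusted p = 0.00119).

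**Figure D3:**
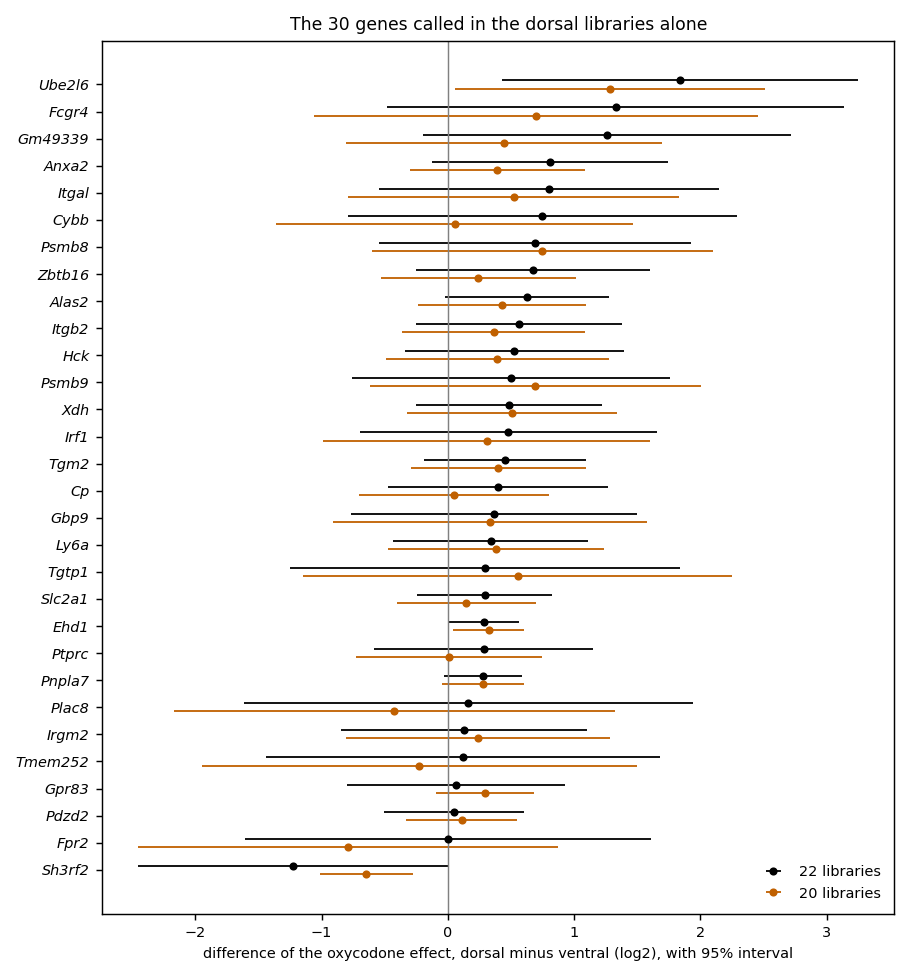
Interaction (log2, horizontal axis) with its 95% interval for each of the 30 genes called in the dorsal libraries alone, with 22 libraries in black and 20 in orange. The intervals of 28 genes (22 libraries) and of 27 (20 libraries) include 0, and all genes except Sh3rf2 lie at or right of 0 with 22 libraries.

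Genes induced by interferon had almost uniformly positive interactions, that is, a more positive oxycodone effect in dorsal striatum. Interferons bind cell surface receptors and act through STAT and IRF transcription factors on promoters that carry the interferon-stimulated response element, and the genes induced include antiviral GTPases and antigen presentation proteins. Of 41 tested members 39 had a positive interaction and 2 a negative one, with a median of 0.47 log2 (0.44 with 20 libraries). Over all genes tested the median was 0.01 and −0.02, and 51.2% and 45.8% of interactions were positive, with 22 and 20 libraries. The median oxycodone effect was 0.91 log2 in dorsal striatum and 0.29 in ventral striatum (0.90 and 0.48 with 20 libraries). At an unadjusted p under 0.05 the interaction of 4 members was positive (Irf9, Ifit1, Ube2l6 and Psmb10), against 2.02% of all genes. With 20 libraries this held for 2 (Ube2l6 and Psmb10), against 1.32% of all genes, and none passed the adjusted threshold. Members share regulators and reads of close paralogues may be split between them, so they are not independent of each other.

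Single libraries set much of that median. It was 0.13 log2 without the fifth oxycodone dorsal library and 0.71 without the fourth oxycodone ventral library. Irf1, an interferon regulatory factor, shows both: it had 25.7, 30, 10.8, 25.0 and 54.0 CPM in oxycodone dorsal libraries, against 7.37 to 9.35 CPM in saline dorsal libraries. In ventral striatum its highest oxycodone value was 35.3 CPM, in the fourth library, within a range of 4.96 to 35.3 CPM (median 16.6), against 4.04 to 11.3 CPM (median 6.85) in saline libraries. Irf1 was thus higher in oxycodone libraries in both regions (1.75 log2 dorsal, 1.28 ventral), and its interaction was 0.48 ± 0.56 log2. Psmb10, an immunoproteasome subunit, had effects of 0.69 log2 in dorsal and −0.18 in ventral striatum with 22 libraries, and 0.68 and 0.00 with 20, with an interaction of 0.87 ± 0.32 and 0.69 ± 0.31.

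The promoter of Irgm2, an interferon-induced GTPase and one of the 30 dorsal calls, is shown because it holds the response element. The sequence is the 250 bases before the start of the gene in RefSeq (GRCm38.p6, chr11:58214727-58214976, plus strand), with the match to GAAANNGAAA in capitals.
Irgm2: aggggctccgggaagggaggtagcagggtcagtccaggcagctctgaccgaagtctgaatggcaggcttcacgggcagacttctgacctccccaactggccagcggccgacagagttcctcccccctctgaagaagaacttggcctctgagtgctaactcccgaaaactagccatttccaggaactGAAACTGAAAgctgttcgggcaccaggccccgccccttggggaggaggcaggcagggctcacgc
Searched on both strands, this motif was present in 18 of 38 promoters of the list (47.4%) and in 978 of 32851 promoters in all (2.98%). Members with the motif had a median interaction of 0.36 log2 (17 tested) and members without it 0.51 (16 tested), or 0.41 and 0.49 with 20 libraries. The sign was thus shared by both, and tested members without a promoter among those searched are in neither part. Irgm2 itself had 18.6, 18.1, 10.1, 11.5 and 30.7 CPM in oxycodone dorsal libraries, against 8.35, 8.88, 4.60, 6.20 and 5.47 CPM in saline dorsal libraries. Its ventral range was 3.57 to 20.3 CPM (median 13.2) after oxycodone and 3.83 to 7.80 CPM (median 4.44) after saline. Its effects were close, 1.42 log2 in dorsal and 1.29 in ventral striatum, and the interaction was 0.13 ± 0.47.

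The medians of other immune lists were smaller without the sixth ventral libraries. The 22 tested genes of MHC class I and antigen presentation had a median interaction of 0.49 log2 with 22 libraries and 0.24 with 20, and the 14 complement genes 0.44 and 0.10. The 17 tested leukocyte markers had 0.28 and 0.05, and cytokines, chemokines and their receptors 0.28 (40 tested) and 0.02 (39 tested). Dorsal and ventral oxycodone libraries also moved them. The MHC class I median was 0.07 log2 (0.00 with 20 libraries) without the fifth oxycodone dorsal library and 0.86 (0.90 with 20 libraries) without the fourth oxycodone ventral library. With 20 libraries the leukocyte median was −0.16 and the complement median −0.02 without the fifth oxycodone dorsal library, and without the fourth oxycodone ventral library the leukocyte median was 0.31 and the cytokine median 0.24. C5ar1, the receptor for complement fragment C5a, had 1.78, 2.3, 2.01, 1.00 and 2.44 CPM in oxycodone dorsal libraries, against 0 to 0.432 CPM in saline dorsal libraries. It had 0.911 to 3.19 CPM (median 1.55) in oxycodone ventral libraries and 0.217 to 1.32 CPM (median 0.636) in saline ventral libraries, and the interaction was 2.23 ± 0.85 log2 (1.85 ± 0.91 with 20 libraries). Mean levels of C5ar1 after oxycodone and saline were 1.91 and 0.142 CPM in dorsal striatum, and 1.75 and 0.664 CPM in ventral striatum. The saline dorsal level was near 0, so the log2 values are imprecise. Cxcl16, a transmembrane chemokine, had an effect of 2.03 log2 in dorsal and −0.08 in ventral striatum, an interaction of 2.11 ± 0.78. With 20 libraries the ventral effect was 0.29 log2 and the interaction 1.72 ± 0.77.

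Markers of blood cells moved with these groups. The leukocyte markers averaged 2.78 to 4.15 log2 CPM in oxycodone dorsal libraries and 2.01 to 2.47 in saline dorsal libraries. In ventral striatum they averaged 1.74 to 3.54 in oxycodone libraries and 0.95 to 2.98 in saline libraries (0.95 to 1.85 without the sixth). The blood list, with Alas2, the first enzyme of haem synthesis in red cells, averaged 5.39 to 6.26 log2 CPM in oxycodone dorsal libraries and 4.97 to 5.56 in saline dorsal libraries, against 4.38 to 5.85 in oxycodone ventral and 4.31 to 5.78 in saline ventral libraries. Haemoglobin level was used as a covariate in 1 of the alternatives, and the part of blood cells in the immune interactions was not tested further. Ptprc, the common leukocyte antigen CD45, had an interaction of 0.28 ± 0.42 log2 with 22 libraries and 0.01 ± 0.36 with 20. Cybb, a subunit of the phagocyte NADPH oxidase, had 0.75 ± 0.75 and 0.05 ± 0.69. Cd4, also on the leukocyte list, went the other way, at −1.26 ± 0.52 and −0.56 ± 0.20. At an unadjusted p under 0.05 the list had 1 positive and 1 negative member with 22 libraries, against 2.02% and 2.49% of all genes. With 20 libraries it had 0 and 2, against 1.32% and 2.79%.

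Chaperones showed the opposite arrangement, a more positive oxycodone effect in ventral striatum. The unfolded protein response raises folding capacity of the endoplasmic reticulum through the sensors ATF6, IRE1 and PERK, and ATF6 acts on promoters with the endoplasmic reticulum stress element. Of 30 tested members of this list 23 had a negative interaction and 7 a positive one, with a median of −0.16 log2 (−0.13 with 20 libraries). The median effect was 0.10 log2 in dorsal and 0.23 in ventral striatum, and 4 members (Hspa5, Pdia4, Sdf2l1 and Edem1) had a negative interaction at an unadjusted p under 0.05, where 2.49% of all genes did. With 20 libraries there were 5 (Atf4, Atf6, Pdia4, Sdf2l1 and Edem1), where 2.79% of all genes did. Cytosolic and mitochondrial heat shock proteins gave 23 negative and 2 positive values of 25, with a median of −0.25 log2 (−0.23 with 20 libraries). At an unadjusted p under 0.05, 2 of these were negative with 22 and with 20 libraries, where 2.49% and 2.79% of all genes were. Over all genes tested 51.2% of interactions were positive with 22 libraries and 45.8% with 20. Here too the members of a list may not be independent of each other. No member of either list passed the adjusted threshold, and the median of neither list changed sign under any of the alternatives run, but single libraries moved both. The heat shock median was −0.12 log2 without the fourth saline dorsal library, and −0.11 with 20 libraries without the first oxycodone ventral library. The median of the endoplasmic reticulum list was −0.09 without the sixth oxycodone ventral library, and −0.07 with 20 libraries without the fourth saline dorsal library.

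Hspa5 encodes BiP, the main Hsp70 chaperone of the endoplasmic reticulum. It had 362 to 584 CPM (median 460.2) in oxycodone ventral libraries and 244 to 326 CPM (median 283) in saline ventral libraries, with no overlap. In dorsal striatum it had 555, 329, 405, 475 and 393 CPM in oxycodone libraries, against 339, 316, 288, 549 and 338 CPM in saline libraries. The fourth saline dorsal library, at 549 CPM, lay within the oxycodone dorsal range. The interaction of Hspa5 was −0.49 ± 0.22 log2 (unadjusted p = 0.0356), and −0.41 ± 0.24 with 20 libraries (unadjusted p = 0.0958). Hsp90b1, the Hsp90 chaperone of the same compartment, had an effect of 0.11 log2 in dorsal and 0.33 in ventral striatum, an interaction of −0.22 ± 0.18.

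The promoters of these chaperones are shown because both hold the stress element. They are the 250 bases before the start of the gene in RefSeq (GRCm38.p6): Hspa5 at chr2:34771840-34772089 on the plus strand and Hsp90b1 at chr10:86705445-86705694 on the minus strand. Capitals mark matches to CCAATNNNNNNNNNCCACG on either strand.
Hspa5: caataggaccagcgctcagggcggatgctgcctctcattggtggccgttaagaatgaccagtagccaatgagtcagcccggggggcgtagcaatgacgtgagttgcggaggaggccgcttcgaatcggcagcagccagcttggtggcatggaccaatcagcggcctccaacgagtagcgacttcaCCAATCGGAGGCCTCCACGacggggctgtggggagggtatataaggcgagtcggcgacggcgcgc
Hsp90b1: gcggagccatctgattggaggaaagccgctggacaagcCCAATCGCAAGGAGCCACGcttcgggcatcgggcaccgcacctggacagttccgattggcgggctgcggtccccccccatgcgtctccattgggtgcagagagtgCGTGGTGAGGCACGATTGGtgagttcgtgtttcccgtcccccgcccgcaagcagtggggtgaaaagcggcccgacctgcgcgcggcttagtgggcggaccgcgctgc
The element was found in 10 of 27 promoters of the list (37.0%) and in 37 of 32851 in all (0.113%). Members with it had a median interaction of −0.22 log2 (9 tested) and members without it −0.13 (17 tested), or −0.16 and −0.11 with 20 libraries. Their median effect in ventral striatum was 0.42 and 0.10 log2, or 0.29 and 0.12 with 20 libraries. Tested members without a promoter among those searched are in neither part. A match describes the letters of these windows and is not a measurement of factor binding.

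Pdia4, a protein disulfide isomerase, had 114 to 191 CPM (median 139.5) in oxycodone ventral libraries and 87.9 to 102 CPM (median 90.3) in saline ventral libraries, with no overlap. Its dorsal libraries had 156, 95.7, 113, 145 and 117 CPM after oxycodone, against 129.6, 106, 85.6, 157 and 111 CPM after saline, and the interaction was −0.56 ± 0.21 log2 (unadjusted p = 0.0127). Sdf2l1, a cofactor of BiP, had an interaction of −0.80 ± 0.34 log2 with 22 libraries and −0.90 ± 0.35 with 20. Xbp1, the transcription factor activated by IRE1, was closer between regions. Oxycodone and saline ventral libraries did not overlap for Xbp1, at 42.5 to 60.9 and 28.8 to 36.2 CPM, and its effect was 0.36 log2 in dorsal and 0.55 in ventral striatum (interaction −0.20 ± 0.16).

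Among the heat shock proteins, Ahsa1, a co-chaperone that activates Hsp90, had an effect of −0.12 log2 in dorsal and 0.33 in ventral striatum, an interaction of −0.45 ± 0.19 (−0.44 ± 0.19 with 20 libraries). Cryab, a small heat shock protein abundant in oligodendrocytes, had 40.1 to 149 CPM (median 83.5) in oxycodone ventral libraries and 28.6 to 53.7 CPM (median 46.3) in saline ventral libraries. Its interaction was −0.84 ± 0.37 log2 with 22 libraries and −0.53 ± 0.32 with 20, where both sixth libraries, at 149 and 28.6 CPM, are absent.

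Genes of dopamine receptor and medium spiny neuron signalling also had mostly negative interactions. These neurons turn dopamine and adenosine signals into cyclic AMP, which phosphodiesterases and regulators of G protein signalling shut off. Of 19 tested members 17 had a negative interaction with 22 and with 20 libraries, with a median of −0.63 log2 in 22 libraries and −0.24 in 20. Over all genes tested 51.2% of interactions were positive with 22 libraries and 45.8% with 20. In the sixth saline ventral library Drd2 had 3.68 CPM, against 112 to 142 CPM in the other saline ventral libraries, and leaving out the sixth library of both ventral groups is what separates these medians. At an unadjusted p under 0.05 there were 2 negative members with 22 libraries (Arpp21 and Arpp19) and 9 with 20 (Drd2, Adora2a, Pde10a, Pde1b, Rgs9, Rgs4, Rasgrp2, Arpp21 and Arpp19), where 2.49% and 2.79% of all genes did, and none passed edgeR's adjusted threshold. With 20 libraries and any 1 further library left out the median stayed between −0.30 and −0.19 log2. Negative values were not particular to this list. Of 12 dorsal striatum markers, Rasgrp2 among them, 10 were negative with 22 libraries and 9 with 20 (medians −0.44 and −0.15). Of 9 tested D2 neuron markers 8 were negative in both fits (medians −0.40 and −0.18). Of 10 D1 neuron markers 8 and 6 were negative (medians −0.19 and −0.05).

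In the 5 and 5 ventral libraries the differences were small and the dorsal groups overlapped. Adora2a, an adenosine receptor of D2 neurons, had 96.7 to 151 CPM (median 134) in oxycodone ventral libraries and 92.3 to 121 CPM (median 96.8) in saline ventral libraries. Its dorsal libraries had 362, 367, 414, 335 and 289.9 CPM after oxycodone, against 359, 368, 396, 361 and 442 CPM after saline, and the interaction was −0.43 ± 0.16 log2. Drd2, the D2 dopamine receptor, had −0.33 ± 0.14 log2 and Drd1 −0.17 ± 0.12. Arpp19, a cyclic AMP-regulated phosphoprotein that inhibits protein phosphatase 2A, had 155 to 215 CPM in oxycodone ventral and 118 to 161 CPM in saline ventral libraries, with an interaction of −0.38 ± 0.13. Rasgrp2, an activator of Rap GTPases, had −0.43 ± 0.13 log2, with effects of −0.24 in dorsal and 0.19 in ventral striatum.

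**Figure D4:**
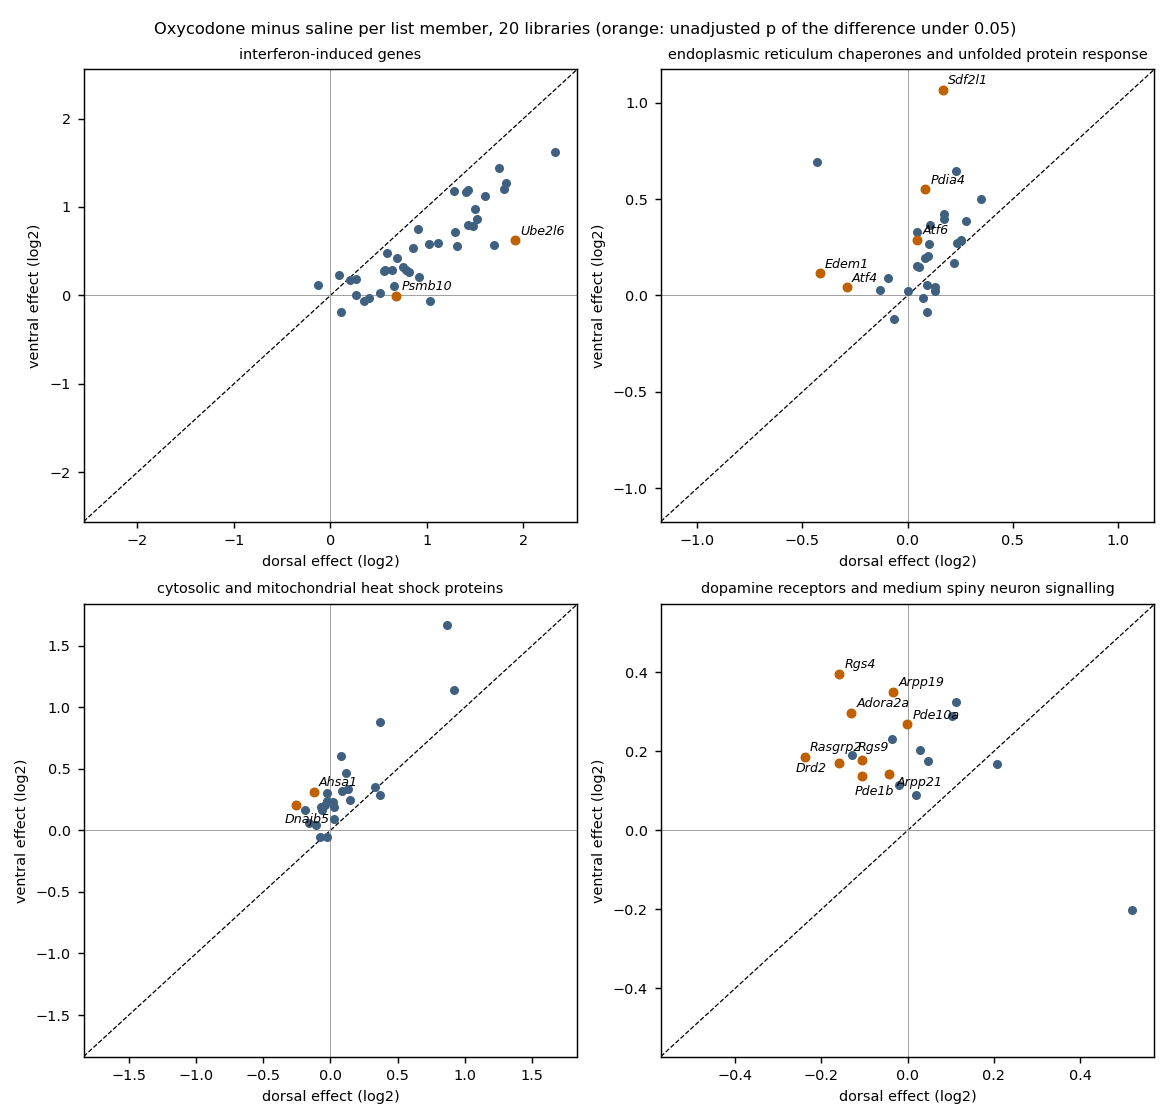
Oxycodone-minus-saline difference (log2) in dorsal striatum (horizontal axes) and in ventral striatum (vertical axes) of each tested member of 4 lists, with 20 libraries, orange where the unadjusted p of the interaction was under 0.05. Interferon-induced genes lie mostly below the dashed line of equal effects, and the chaperones, heat shock proteins and medium spiny neuron genes mostly above it.

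Among ion channels and receptors, single genes had low unadjusted p while the medians of their lists lay near 0. Gabrd, the delta subunit of extrasynaptic GABA-A receptors, had 83.7 to 147 CPM (median 95.6) in oxycodone ventral and 66.0 to 92.2 CPM (median 72.6) in saline ventral libraries. Its dorsal libraries had 208, 215, 244, 218 and 204 CPM after oxycodone, against 273, 239, 239, 207 and 247 CPM after saline, and the interaction was −0.55 ± 0.17 log2 (−0.42 ± 0.13 with 20 libraries). Gabra4, the alpha 4 subunit that pairs with it, had −0.45 ± 0.16 and −0.34 ± 0.13. The 17 tested GABA and glycine receptor genes had a median interaction of 0.09 log2 with 22 libraries and −0.02 with 20. Kcnj4, an inward rectifier potassium channel, had −0.43 ± 0.17 log2, in a list of 29 potassium channels with a median of 0.00 (−0.08 with 20 libraries). Glutamate receptors and transporters (29 tested) had medians of 0.03 and 0.01.

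In the opioid system itself, no receptor or peptide precursor gene passed edgeR's adjusted threshold for the interaction with 22 or with 20 libraries. Oprm1, the mu receptor on which oxycodone acts, had 11.6, 16.3, 19.3, 15.1 and 15.3 CPM in oxycodone dorsal libraries, against 21.2, 12.6, 19.7, 23.3 and 18.3 CPM in saline dorsal libraries. Its 5 and 5 ventral libraries had 33.2 to 50.8 CPM (median 40.5) after oxycodone and 37.1 to 50.7 CPM (median 44.5) after saline, while the sixth libraries held 19.0 CPM (oxycodone) and 7.92 CPM (saline). The groups overlapped in both regions, and the interaction was −0.24 ± 0.21 log2 with 20 libraries (95% interval −0.67 to 0.20) and −0.30 ± 0.43 with 22. Oprd1, the delta receptor, had −0.11 ± 0.22 log2 and Oprk1, the kappa receptor, −0.05 ± 0.23 with 20 libraries. Their 95% intervals, −0.56 to 0.33 and −0.51 to 0.41, leave room for regional differences of about that size.

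Oprl1, the nociceptin receptor, was the opioid receptor gene with an unadjusted p under 0.05. It had 21.3, 29.9, 23.9, 25.0 and 22.8 CPM in oxycodone dorsal libraries, against 22.5, 25.1, 18.2, 25.3 and 24.1 CPM in saline dorsal libraries. In ventral striatum it had 16.9 to 32.6 CPM (median 26.5) after oxycodone and 29.0 to 38.9 CPM (median 32.8) after saline. The interaction was 0.45 ± 0.20 log2 with 22 libraries (unadjusted p = 0.0316) and 0.38 ± 0.17 with 20 (unadjusted p = 0.0386), in both cases from a lower ventral level after oxycodone. Penk, which encodes proenkephalin, and Pdyn, which encodes prodynorphin, were best bounded with 20 libraries. Penk had −0.02 ± 0.14 log2 (95% interval −0.31 to 0.28) and Pdyn −0.01 ± 0.14 (−0.30 to 0.27). With 22 libraries the Penk interaction was −0.40 ± 0.56, the sixth ventral libraries holding 1826 CPM (oxycodone) and 74.3 CPM (saline).

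The medians of some cell type lists moved when the sixth ventral libraries were left out. Markers of cortical glutamatergic neurons (15 tested) had a median interaction of 0.95 log2 with 22 libraries and −0.27 with 20, a change of sign that leaving out the sixth saline ventral library alone also gave (−0.18). With 20 libraries that median was −0.02 without the first saline dorsal library. The choroid plexus and ependyma list (16 tested) had −1.08 log2 with 22 libraries and −0.44 with 20, and −0.14 when the fifth saline dorsal library was also left out. Its leading gene Ttr, transthyretin, a thyroid hormone carrier secreted by the choroid plexus, ranged from 52.1 to 3184 CPM among the oxycodone dorsal and from 339 to 3453 CPM among the saline dorsal libraries. The sixth oxycodone ventral library held 1699 CPM of Ttr, against 1.45 to 30.1 CPM in the other oxycodone ventral and 1.41 to 5.66 CPM in the saline ventral libraries. Its interaction was −6.92 ± 2.23 log2 with 22 libraries and −2.01 ± 1.72 with 20. Oligodendrocyte markers (15 tested) had medians of −0.45 and −0.16, and Reln, the extracellular protein reelin from the dorsal marker list, had −0.73 ± 0.33 and −0.42 ± 0.18 log2.

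Glucocorticoid-responsive genes (24 tested) had a median interaction of 0.14 log2 with 22 libraries and 0.16 with 20, with effects of 0.49 in dorsal and 0.35 in ventral striatum. Single libraries moved that median, to 0.05 without the third saline dorsal library and 0.29 without the second, and with 20 libraries to 0.02 without the first and 0.25 without the fourth oxycodone ventral library. Zbtb16, a zinc finger factor induced by glucocorticoids, had an interaction of 0.68 ± 0.44 log2 (0.24 ± 0.37 with 20 libraries). Gh, growth hormone, had 14.7, 9.08, 14.4, 7.68 and 1.44 CPM in oxycodone dorsal libraries, against 3.55, 3.34, 8.92, 3.01 and 8.98 CPM in saline dorsal libraries. Its ventral libraries were separate, with 8.83 to 49.1 CPM (median 16.9) after oxycodone and 1.06 to 7.08 CPM (median 4.38) after saline, and the interaction was −1.60 ± 0.78 log2 (−1.97 ± 0.84 with 20 libraries). The pituitary list to which Gh belongs had 3 of 9 genes in the table at levels that could be tested.

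Cort, the somatostatin-like peptide cortistatin of interneurons, had 0.222, 0.115, 1.15, 1.15 and 0.215 CPM in oxycodone dorsal libraries, against 5.50, 3.87, 1.87, 0.866 and 1.22 CPM in saline dorsal libraries. Its ventral groups overlapped, with 1.61 to 5.57 CPM after oxycodone and 1.36 to 7.74 CPM after saline, and the interaction was −2.10 ± 0.81 log2 (−2.56 ± 0.80 with 20 libraries, unadjusted p = 0.00353). These are low counts and the value is correspondingly imprecise. Calcr, the calcitonin receptor, a marker of parts of the accumbens, had 0 to 0.46 CPM in oxycodone dorsal libraries and 0.528 to 2.83 CPM in saline dorsal libraries, without overlap, and −2.04 ± 1.14 log2.

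Activity-regulated genes showed no common regional difference with 22 libraries but had mostly negative interactions with 20. The 24 immediate early genes had a median interaction of −0.03 log2 with 22 libraries, with 10 positive and 14 negative. With 20 libraries the median was −0.21 log2, with 5 positive and 19 negative, where 45.8% of all genes were positive. That median stayed between −0.27 and −0.12 with any 1 further library left out, and between −0.29 and −0.02 under the other alternatives. At an unadjusted p under 0.05, 2 members were negative with 20 libraries, against 2.79% of all genes. Fos, the transcription factor subunit used as a marker of recent activity, had 10.2, 13.4, 8.19, 6.60 and 9.76 CPM in oxycodone dorsal libraries, against 7.55, 15.4, 5.54, 4.83 and 6.08 CPM in saline dorsal libraries. Its interaction was 0.05 ± 0.36 log2 with 22 libraries and −0.12 ± 0.36 with 20, with overlap in both regions. Homer1, a scaffold of metabotropic glutamate receptors whose short form is activity-induced, had 144 to 227 CPM in 5 oxycodone ventral and 138 to 159.5 CPM in 5 saline ventral libraries, and an interaction of −0.44 ± 0.13 log2 with 20 libraries (unadjusted p = 0.00182). Circadian clock genes (19 tested) had medians of −0.01 and −0.04, and axon guidance genes (52 tested) 0.07 and 0.02.

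**Figure D5:**
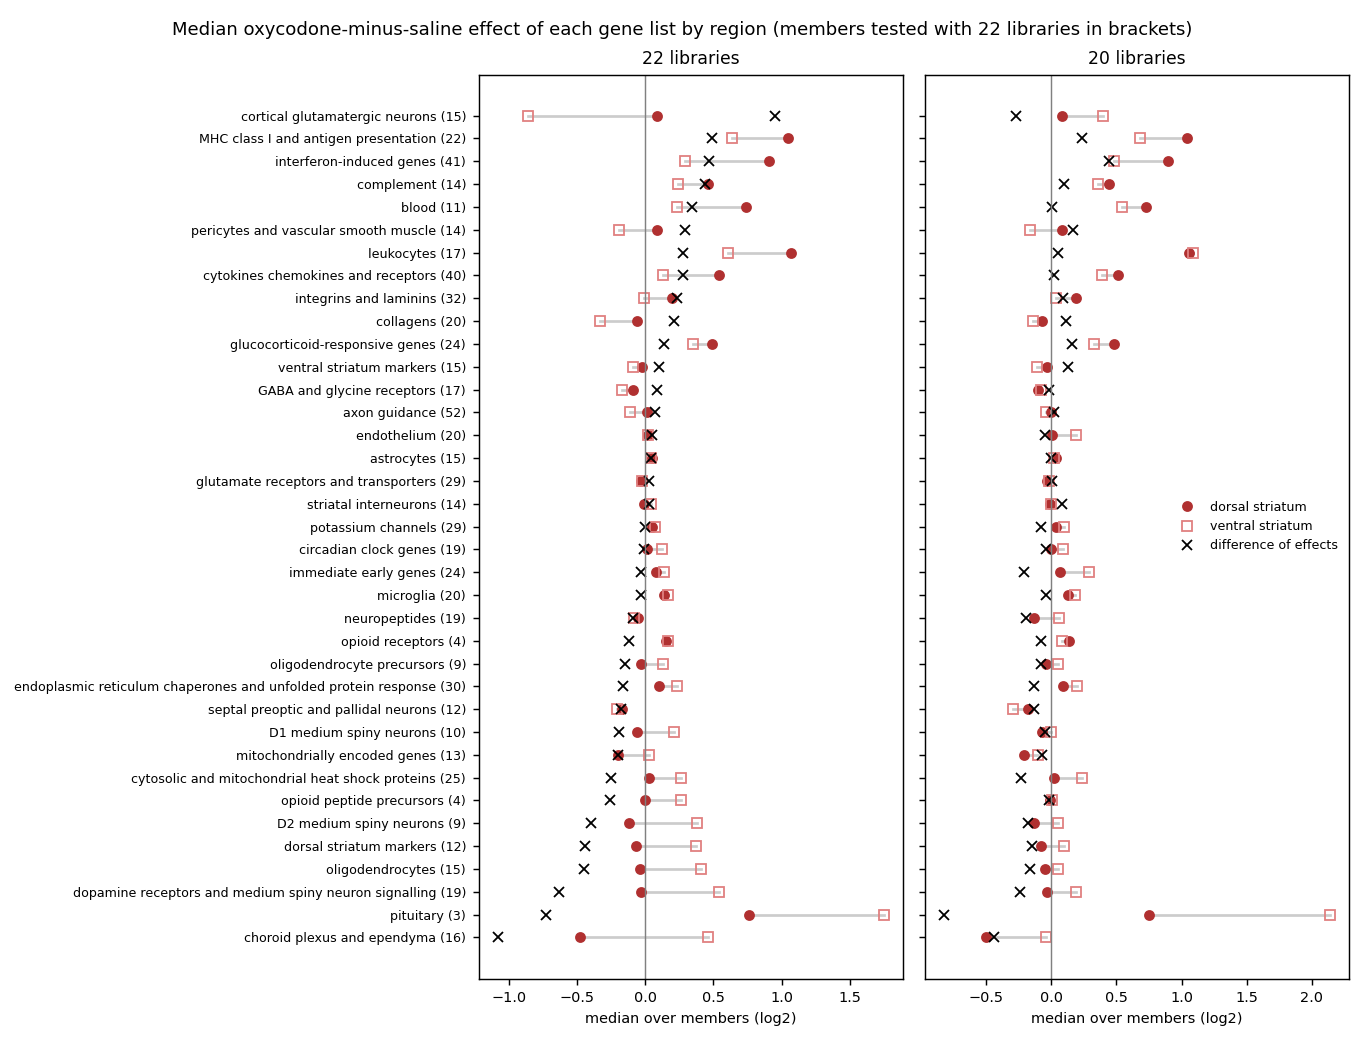
Median oxycodone-minus-saline difference (log2, horizontal axes) over the tested members of each of 37 gene lists in dorsal striatum (filled circles) and ventral striatum (open squares), with the median interaction as crosses, for 22 libraries (left) and 20 libraries (right). Interferon-induced genes sit further right in dorsal striatum in both panels, while the crosses of cortical markers move to the other side of 0, at 0.95 with 22 libraries and −0.27 with 20.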

How the data were processed

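RNA of 22 striatal libraries was compared, in the groups the labels give. The deposited table holds the authors' raw counts for 23119 Ensembl genes, all values being whole, and every count column matched a library. Per the submitters' processing notes, CASAVA 1.8.2, STAR 2.3 and featureCounts (version not stated) were used, with builds mm10, GRCm38 and mm9 named without a role. The strand setting and the treatment of multi-mapping reads are not given in the sources used here, so paralogues and overlapping genes are uncertain. Symbols and positions are those of GENCODE M21 (GRCm38), matched by identifier for 22282 genes (96.4%).

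Libraries were numbered within groups in accession order. Genes kept by filterByExpr were fitted as 4 groups with TMM factors and robust dispersions in edgeR 4.0.16 (R 4.3.3), and the interaction contrast was tested by the quasi-likelihood test, two-sided, with Benjamini-Hochberg adjustment over all genes and a threshold of 0.05. Unadjusted p-values come from the same test. SE and 95% intervals are Wald values on the fitted log2 difference. CPM of single libraries and group ranges are TMM-scaled. List levels are means of log2 CPM with a prior count of 2. The procedure was tested on simulated data.

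Alternatives were other scaling factors and filters, DESeq2 1.42.0, limma 3.58.1 voom (sample or group weights), a threshold of 0.1, dispersions fitted non-robustly, lane, title suffix P or haemoglobin level as covariates or subsets, counts summed over dorsal libraries that share a title number, thinned dorsal counts, title number as a block, and each library left out in turn. Within groups, the lowest chi-square per degree of freedom between libraries was 2.88 over 50 pairs, so none was treated as a repeat.

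Named genes are, by rule, the 8 lowest p each way with 22 libraries and 6 each way with 20 (mean of at least 1 CPM, gene models passed over), the 2 lowest of each of 37 lists, and 16 genes always named. That rule names 108 genes, of which a subset picked after their values were seen is given here, and some results are not reported here. Those outside it, 1700019D03Rik, Cybb, Ehd1, Hsp90b1, Irgm2, Psmb8 and Sh3rf2, were chosen after their values were seen. The members and lists were chosen with earlier results of these data known. Lists hold 705 genes, 695 in the table. Library totals limit precision to counting error at best, and a count of 0 allows up to 3 counts.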

Additional observations from a re-analysis of the deposited data

Results flagged for a closer look

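Levels of 70 genes were checked in each of the 4 groups, 280 gene-group sets in all. In 54 of them (19.3%) the highest or lowest library lay further from its nearest neighbour than Dixon's 95% limit allows, where chance alone flags about 5%. Of these, 29 were in saline ventral striatum (28 in its sixth library), 18 in oxycodone ventral striatum (15 in its sixth library), 3 in oxycodone dorsal and 4 in saline dorsal striatum. The 5% holds for independent, normally spread sets, while these genes share the same libraries. Some of them were also named by their values without both sixth ventral libraries, so the number of flags is a description. No explanation was tested.

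In the sixth oxycodone ventral library the flagged levels were the highest of their group. They were 262.0 CPM for Adora2a, 389 for Arpp19, 904 for Arpp21, 335 for Drd2, 180.3 for Gabra4, 147 for Gabrd, 19.2 for Oprd1 and 1826 for Penk. They were also 261 CPM for Rasgrp2, 663 for Reln, 715 for Rgs4, 21.6 for Robo3, 111 for Rragd, 125 for Sh3rf2 and 1699 for Ttr. Transcripts of medium spiny neurons and of the dorsal striatum were thus among those that stood apart upward.

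In the sixth saline ventral library transcripts of medium spiny neurons stood apart downward. They were 2.36 CPM for Adora2a, 459 for Arpp21, 5.75 for Drd1, 3.68 for Drd2, 1.13 for Gpr149, 1.89 for Oprk1, 7.92 for Oprm1, 11.1 for Pdyn and 74.3 for Penk. Rasgrp2 at 13.8 CPM, Sh3rf2 at 2.45, Cryab at 28.6 and Ppil4 at 57.5 were also the lowest of that group. Other genes were highest there: Btbd11 at 29.7 CPM, Ccbe1 at 9.91, Dmtn at 442, Ephx4 at 57.0, Homer1 at 244, Rgs4 at 415, Robo3 at 66.6, Tmem200a at 30.9 and Wwtr1 at 27.4. Alas2 at 52.4 CPM, Cybb at 5.38, Psmb10 at 30.8, Ptprc at 24.7, Ube2l6 at 11.5 and Zbtb16 at 81.9 were highest there too.

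The remaining ventral levels that stood apart were Cybb at 12.2 CPM and Psmb10 at 27.1 in the fourth oxycodone library (highest), Rprml at 4.76 in the first oxycodone library (lowest) and Psmb8, an immunoproteasome subunit, at 10.7 in the third saline library (highest). In dorsal striatum they were Alas2 at 97.8 CPM and Prox1 at 8.11 in the fifth oxycodone library (highest) and Gpatch4 at 6.68 in the third (lowest). Among saline dorsal libraries they were Robo3 at 30.5 CPM in the first, Fos at 15.4 (highest) and Gabra4 at 191 (lowest) in the second, and Hspa5 at 549 in the fourth.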

How the results depend on the processing

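The count of genes called for the interaction was 0 with 22 and with 20 libraries under every alternative run except the following. With 22 libraries, the dorsal libraries without the title suffix P gave 2, among them Upp2 at 2.19 log2 (edgeR adjusted p of 0.031), and with 20 libraries DESeq2 gave 5. Leaving out each library in turn gave 0 to 0 calls. With title number as a replicate block there were 0 calls (338 at an unadjusted p under 0.05, against 418 in the same libraries unblocked). The labels do not say whether a shared title number marks the same animal in both regions. Over 8 shared numbers the correlation of deviations from the group means ran from −0.08 to 0.31, and 1 was over 0.1. With group means of so few libraries these correlations cannot decide the pairing. The values of the 70 genes were repeated under the alternatives of the fit of 22 libraries only, so the DESeq2 calls with 20 libraries are not among them. Of the repeated values 2962 kept their direction and side of the threshold and 48 changed sign, for which the cause was not tested. Robo3 was −1.35 and −0.86 by limma-voom with sample and group weights, −1.13 with the replicate block, −1.10 unblocked, −1.30 in ventral lane 1, −0.41 with lane and −1.19 with haemoglobin as covariates, and −1.34 without both sixth ventral libraries. By limma-voom with sample weights Cp was −0.047 and Ptprc −0.068. With the block Cp was −0.055, Oprd1 0.048, Oprk1 0.049, Penk 0.025 and Fos −0.087, and unblocked Cybb was −0.065, Oprd1 0.041, Oprk1 0.051, Penk 0.017, Pdyn 0.012 and Fos −0.19. In ventral lane 1 Penk was 0.037, Pdyn 0.051 and Fos −0.18, without suffix P Oprd1 was 0.024 and Irgm2 −0.023, with haemoglobin Ptprc was 0.00, and without both sixth libraries Fos was −0.12. Leaving out 1 library gave −1.987 to 0.947 for Robo3, −0.046 to 0.528 for Ptprc, −0.304 to 0.166 for Oprd1, −0.295 to 0.049 for Oprk1, −0.231 to 0.112 for Pdyn, −0.099 to 0.435 for Fos and −0.159 to 0.318 for Irgm2. Depth limits genes at low levels most: 1700019D03Rik rested on 17 to 113 counts per library.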
